A study of Mus musculus with 6 samples.

Results

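The Glis3 locus of mouse chromosome 19 was described through its accessible regions in organoid lines grown from primary colon tumours and in the naive organoids those tumours came from. Its members were all ATAC-seq peaks overlapping a window of 600 kb from 28250000 to 28850000 (build mm9), which holds the gene from about 28333000 to 28755000. The window held 20 of the 43020 peaks of the series. The locus was chosen by the measured difference between the groups at its peak from 28698280 to 28699604, so the values of this contrast at the locus are given as a description and without p-values. There were 3 libraries of primary tumour lines. All were organoids of mouse colon cancer with the genotype given in the labels as AKP. To obtain the primary tumour lines, AKP organoids were placed into the colon of immunocompetent C57Bl6 mice through a colonoscope, the resulting tumours were grown as organoids, and these were passaged until only cancer cells remained. The other 3 libraries were of naive AKP organoids, which had not been transplanted. Growth in the mouse, outgrowth and passaging are shared by all 3 primary tumour lines and cannot be told apart here, and the sources used here do not say whether the 3 naive libraries came from separate cultures or each line from a mouse of its own.

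GLIS3 is a transcription factor with Krüppel-like zinc fingers, related to the GLI and ZIC proteins, which can activate or repress its target genes. It is best known from the pancreas, where it is needed for beta cells and insulin expression, and from the thyroid and the kidney. ATAC-seq marks open chromatin through cuts by the Tn5 transposase. A peak inside or near a gene may be a promoter or a distal element, and openness is not a measure of the gene's RNA, which was not measured here. A distal element can also act on another gene. In RefSeq order (GRCm38.p6) the nearest protein-coding genes are Rfx3, a ciliary transcription factor gene, below the low-coordinate end and Slc1a1, a glutamate transporter gene, above the high-coordinate end. The lncRNA gene Gm35866 lies inside Glis3, and the lncRNA gene D930032P07Rik overlaps its high end.

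Glis3 lies on the minus strand, so its annotated start is at its high-coordinate end. The RefSeq promoter sequence of Glis3 (GRCm38.p6, chr19:28680028-28680327, minus strand, 250 bases before to 50 after the start) is shown because the peak from 28752142 to 28754872 ended within 1 kb of the approximate mm9 position of that end. The capitals mark CCGCCC, the core of a GC box, chosen after the sequence was seen.
Glis3 promoter: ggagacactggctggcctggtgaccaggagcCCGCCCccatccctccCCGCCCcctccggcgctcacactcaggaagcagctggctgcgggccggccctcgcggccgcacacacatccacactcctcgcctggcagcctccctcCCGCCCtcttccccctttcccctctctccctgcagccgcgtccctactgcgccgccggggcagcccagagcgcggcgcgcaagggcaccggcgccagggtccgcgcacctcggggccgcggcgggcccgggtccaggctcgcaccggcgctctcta
It was rich in G and C, with 76.3% against a median of 52.7% over 32841 RefSeq promoters, and 97.1% of those promoters had a lower value. It held 32 CpG pairs, against a median of 7. CCGCCC or its reverse complement GGGCGG occurred 3 times in it, and in 35.7% of all promoters at least once. There was no match on either strand to ACAAT (SOX core, in 31.0% of promoters), TGANTCA (AP-1, 7.81%), ATCAAAG (TCF/LEF, 3.73%) or TGTTTAC (FOX, 3.65%), nor to the GLI/GLIS-type motif searched (0.0731%), which says only that these letters are not in these 300 bases. Builds differ, so whether these bases lie inside the mm9 peak was not tested, and exon and intron positions of the peaks were not analysed here.

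The libraries held between 1185356 (naive replicate 1) and 5987545 (naive replicate 2) counts in peaks, so that 1 read was worth between 0.184 and 0.858 CPM, the usual depth-scaled count, here after TMM scaling of library size. The window took 0.0307%, 0.0304% and 0.0221% of the counts in primary tumour replicates 1, 2 and 3, against 0.00709%, 0.00311% and 0.00651% in naive replicates 1, 2 and 3. The exact binomial 95% intervals, which cover counting error only, ran from 0.0201% upward in the primary tumour lines and up to 0.00877% in the naive libraries. Whether the organoids were open at epithelial marker genes was not analysed here.

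Summed over its 20 peaks, which cover 16.9 kb, the window had 315, 309 and 215 CPM in replicates 1, 2 and 3 of the primary tumour lines, against 72.1, 34.2 and 65.3 CPM in naive replicates 1, 2 and 3. Every primary tumour line lay above every naive library. In bulk libraries such as these, more cells with an open region and more openness per cell cannot be told apart. The means were 280 ± 55.7 CPM in the primary tumour lines, against 57.2 ± 20.2 CPM in the naive libraries (± SD, 3 libraries each), and the ratio of means was 4.89. Without the peak that chose the locus the means were 219 ± 45.2 CPM in the primary tumour lines, against 55.3 ± 19.9 CPM in the naive libraries, and the ratio was 3.97. On the rest of chromosome 19, summed over 1336 peaks, the ratio of means was 1.05. A sum over so many peaks does not show how far sets of 20 peaks vary.

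**Figure D1:**
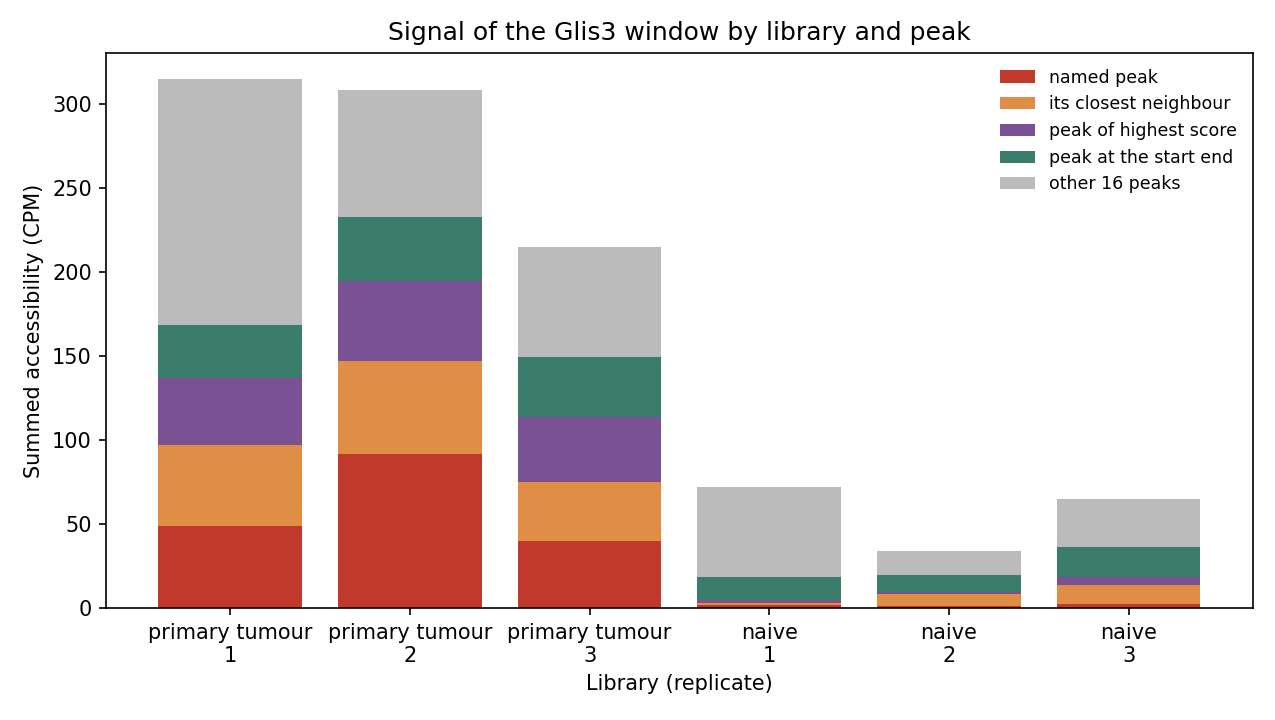
Summed accessibility of the Glis3 window in CPM (vertical axis) for each library (horizontal axis), 3 primary tumour lines on the left and 3 naive libraries on the right, split by peak. The primary tumour lines reached 215 to 315 CPM and the naive libraries 34.2 to 72.1 CPM, of which the peak that chose the locus (red) gave 39.8 to 92.1 CPM in the primary tumour lines and 1.47 to 2.56 CPM in the naive libraries.

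Counts were high enough for the test at 9 of the 20 peaks, and 11 were too low. Of the 9 tested peaks, 7 were called higher in primary tumour lines by edgeR's quasi-likelihood test at an adjusted p under 0.05, where 8.00% of all 36179 tested peaks were called higher. None was called lower, where 6.40% of all tested peaks were, and the count of lower peaks was also 0 with DESeq2. All 9 log2 fold changes were above 0, as were 17980 of all 36179. None of the 9 could therefore be called lower in this fit at any threshold. A weak peak can pass the count filter through its primary tumour signal alone, so the share of called peaks among the 9 is not read as a result. With no filter, 8 of all 20 peaks were called higher, against 7.04% of all 43020 peaks, 0 were called lower, against 5.15%, and 19 of 20 log2 fold changes were above 0. Their median was 1.65, against 0.01 over all peaks in the same fit. In 10 of the 20 peaks all 3 primary tumour lines lay above all 3 naive libraries, where 14.8% of all 43020 peaks were separated in this way, and in the other 10 the groups overlapped. Because this contrast chose the locus, these shares describe it and support nothing further.

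The peak at the start end, from 28752142 to 28754872, was the widest of the window at 2730 bp. It had 31.7, 38.1 and 36.0 CPM in replicates 1, 2 and 3 of the primary tumour lines, against 13.7, 9.92 and 17.5 CPM in naive replicates 1, 2 and 3. All primary tumour lines were above all naive libraries, and the lines were close to each other. The means were 35.3 ± 3.29 CPM in the primary tumour lines, against 13.7 ± 3.79 CPM in the naive libraries (± SD, 3 libraries each), and the log2 fold change was 1.39 (SE 0.32). This peak was open in both groups and was the strongest of the window in naive organoids, where it held 25.0% of the window's signal on average, against 13.0% in primary tumour lines. Without naive replicate 2, the deepest library, its log2 fold change was 1.14 and it was no longer called.

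The peak from 28698280 to 28699604, which chose the locus, lay about 56.1 kb into the gene from the start end. It held 172, 174 and 84 reads in primary tumour replicates 1, 2 and 3, against 2, 8 and 6 reads in naive replicates 1, 2 and 3. This was 49.1, 92.1 and 39.8 CPM in the primary tumour lines, against 1.72, 1.47 and 2.56 CPM in the naive libraries. The signal was low in each naive library and high in each primary tumour line. Replicate 2 stood above the other primary tumour lines by more than counting error, with an exact Poisson 95% interval of 78.9 to 107 CPM against 42.0 to 57.0 CPM in replicate 1 and 31.8 to 49.3 CPM in replicate 3. Its means were 60.3 ± 27.9 CPM in the primary tumour lines, against 1.92 ± 0.573 CPM in the naive libraries (± SD, 3 libraries each), and the log2 fold change was 5.0 (SE 0.42). This peak had the highest mean of the window in primary tumour lines. It held 21.3% of the window's signal there and 3.53% in naive organoids.

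Its closest neighbour lay 1.66 kb away, from 28695987 to 28696620. That peak had 48.2, 55.0 and 35.6 CPM in replicates 1, 2 and 3 of the primary tumour lines, against 1.72, 6.80 and 11.1 CPM in naive replicates 1, 2 and 3. The groups did not overlap, and in naive replicates 2 and 3 this peak was open to a degree that the other of the pair was not. The signal of the peak at 28698280 relative to this neighbour was 1.02, 1.67 and 1.12 in the primary tumour lines, against 1.0, 0.216 and 0.231 in the naive libraries, where the first naive value rests on 2 reads at each peak. The means of the neighbour were 46.3 ± 9.87 CPM in the primary tumour lines, against 6.54 ± 4.70 CPM in the naive libraries (± SD, 3 libraries each), and the log2 fold change was 2.70 (SE 0.38).

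The signal of the peak at 28698280 relative to the start-end peak was 1.55, 2.42 and 1.11 in primary tumour replicates 1, 2 and 3, against 0.125, 0.148 and 0.146 in naive replicates 1, 2 and 3. Of this pair the interior peak was the stronger in each primary tumour line, and the start-end peak in each naive library. The difference at the interior peak chose the locus, so this ratio describes that peak and not the interior as a whole.

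Another strong peak lay about 384 kb from the start end, near the low-coordinate end of the gene, from 28370378 to 28371535. It carried the highest authors' score of the window, 141, where the window's median was 16.0 and that of the whole series 21.8. It had 39.6, 47.6 and 38.4 CPM in replicates 1, 2 and 3 of the primary tumour lines, against 1.72, 1.65 and 5.13 CPM in naive replicates 1, 2 and 3. The primary tumour lines differed little among themselves, and all lay far above the naive libraries. The means were 41.9 ± 5.0 CPM in the primary tumour lines, against 2.83 ± 1.99 CPM in the naive libraries (± SD, 3 libraries each), and the log2 fold change was 3.91 (SE 0.42). With 1 library left out the log2 fold change lay between 3.42 (without naive replicate 2) and 4.59 (without naive replicate 3).

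**Figure D2:**
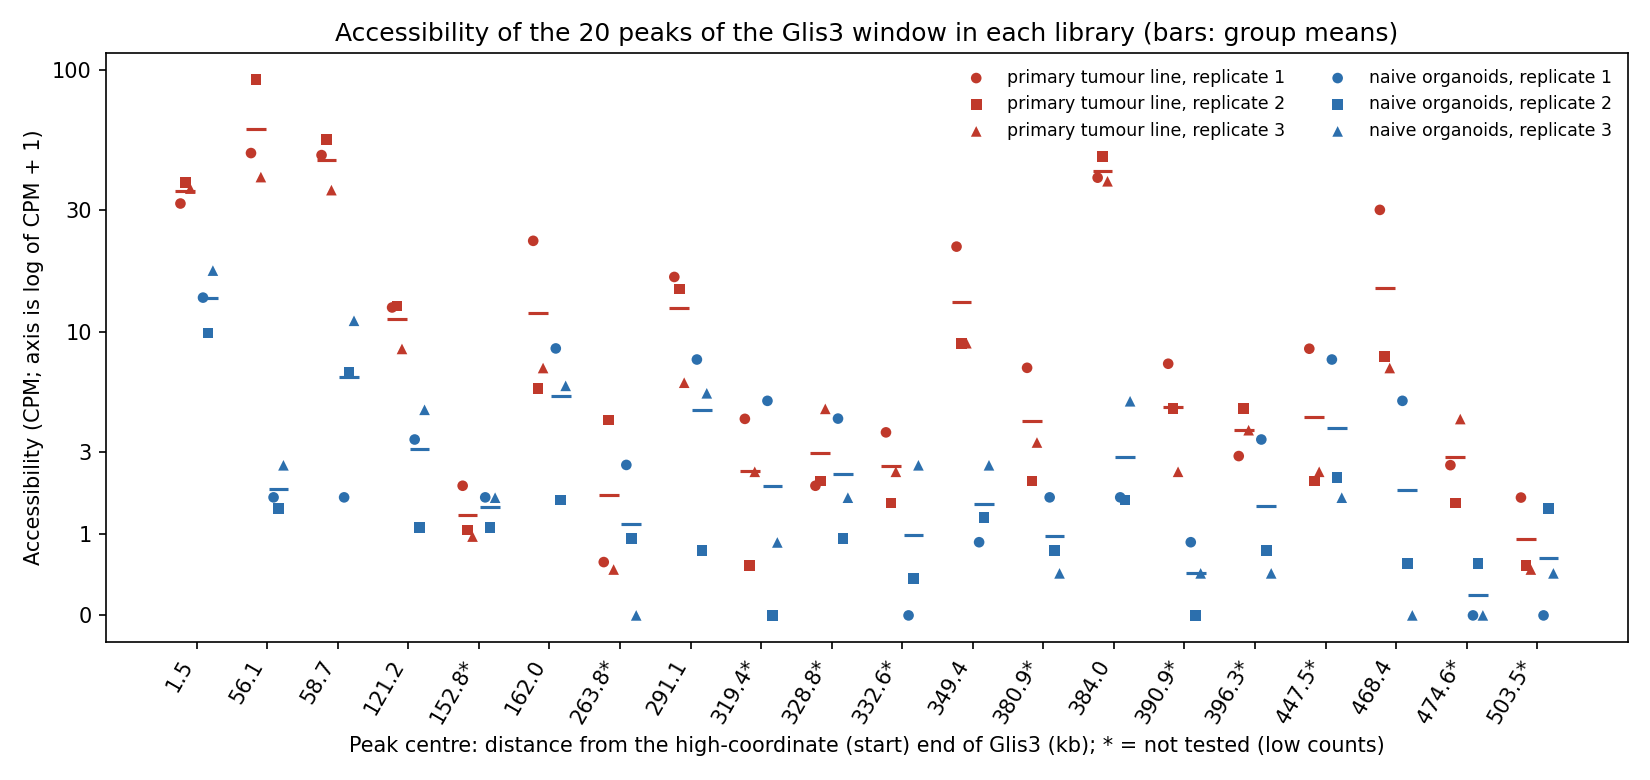
Accessibility in CPM on a log axis of CPM + 1 (vertical) of each of the 20 peaks, ordered by the distance of their centre from the start end of Glis3 in kb (horizontal). Red points are primary tumour lines, blue points are naive libraries, shapes are replicates, short bars are group means and asterisks mark the 11 peaks that were not tested. The peaks at 1.5, 56.1, 58.7 and 384.0 kb are the 4 with the highest means, and at each of them the red points lie above the blue ones.

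A pair of weaker interior peaks was also called. The peak from 28405306 to 28405976 had 21.7, 9.0 and 9.01 CPM in replicates 1, 2 and 3 of the primary tumour lines, against 0.858, 1.29 and 2.56 CPM in naive replicates 1, 2 and 3 (log2 fold change 3.03, SE 0.61). Replicate 1 was more than 2 times as high as the other primary tumour lines, and all 3 were above the naive libraries. The peak from 28633206 to 28634493 had 12.5, 12.7 and 8.54 CPM in the primary tumour lines, against 3.43, 1.10 and 4.70 CPM in the naive libraries (log2 fold change 2.00, SE 0.59). Its groups did not overlap either, but its call was lost without primary tumour replicate 2 (log2 fold change 1.90), without naive replicate 2 (1.42) and with the replicate number as a block (2.04). Without naive replicate 3 its log2 fold change was 2.61.

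The seventh called peak lay outside the gene, beyond its low-coordinate end, from 28286230 to 28286895. It held 105, 15 and 15 reads in primary tumour replicates 1, 2 and 3, against 6, 3 and 0 reads in naive replicates 1, 2 and 3. This was 29.9, 7.94 and 7.11 CPM in the primary tumour lines, against 5.15, 0.551 and 0 CPM in the naive libraries. Replicate 1 stood far above the other primary tumour lines, which were not far above naive replicate 1. The log2 fold change was 3.63 (SE 0.88). It was 2.55 without primary tumour replicate 1 and 2.96 without naive replicate 2, and 3.16 with DESeq2, and the call was lost in each of these. Without naive replicate 1 it was 5.23 and without naive replicate 3 it was 3.01, and the peak was called in both.

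Among the 9 tested peaks, 2 did not pass, and both had overlapping groups. The peak from 28463555 to 28464337 had 16.5, 14.8 and 6.17 CPM in replicates 1, 2 and 3 of the primary tumour lines, against 7.72, 0.735 and 5.55 CPM in naive replicates 1, 2 and 3, with a log2 fold change of 1.66 (SE 0.64). It was called without primary tumour replicate 3 (log2 fold change 2.00) and without naive replicate 1 (2.19), and its log2 fold change was 0.96 without naive replicate 2. The peak from 28592128 to 28593882 had 22.8, 5.82 and 7.11 CPM in the primary tumour lines, against 8.58, 1.65 and 5.98 CPM in the naive libraries, with a log2 fold change of 1.36 (SE 0.62). Without primary tumour replicate 1 its log2 fold change was 0.45.

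The 11 untested peaks had means between 0.769 and 4.11 CPM over the 6 libraries and at most 30 reads in any library. In 10 of them the mean was higher in primary tumour lines. In 3 the groups did not overlap, where 14.8% of all 43020 peaks had all primary tumour lines above all naive libraries. The shares among equally weak peaks were not analysed here, so these counts are not read as a result. The summed signal of the 11 peaks was 42.8, 25.4 and 27.5 CPM in replicates 1, 2 and 3 of the primary tumour lines, against 27.5, 9.0 and 10.2 CPM in naive replicates 1, 2 and 3, so that primary tumour replicate 2 lay below naive replicate 1. The peak from 28363848 to 28364257 held 26, 9 and 5 reads in the primary tumour lines, against 1, 0 and 1 reads in the naive libraries. The ratio of its pooled, depth-scaled counts was 23.9, with an exact 95% interval of 6.19 to 204 for counting error only. It was the peak that was called in addition when no filter was used. For the peak from 28280220 to 28280505, with 3 naive reads in all, the same ratio was 8.35 (2.49 to 43.7). The remaining peak separated in this way, from 28373918 to 28374190, had 7.13, 2.12 and 3.32 CPM in the primary tumour lines, against 1.72, 0.735 and 0.427 CPM in the naive libraries.

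The edges of the window were set by its coordinates. Just inside its low end, the peak from 28251384 to 28251683 had 1.71, 0.529 and 0.474 CPM in replicates 1, 2 and 3 of the primary tumour lines, against 0, 1.47 and 0.427 CPM in naive replicates 1, 2 and 3. Just outside, the peak from 28240493 to 28240828 had 3.42, 1.59 and 0.474 CPM in the primary tumour lines, against 0.858, 1.10 and 0.854 CPM in the naive libraries. Both were too weak to test and had overlapping groups. At the high end the start-end peak was the last inside, and the next peak came 147 kb later, from 28902261 to 28902703. That peak had 16.5, 4.76 and 7.11 CPM in the primary tumour lines, against 1.72, 5.33 and 3.84 CPM in the naive libraries, and did not pass the test (log2 fold change 1.28, SE 0.57).

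Beyond the low end, the nearest strong peak, from 28085582 to 28086686, had 83.9, 82.6 and 60.7 CPM in replicates 1, 2 and 3 of the primary tumour lines, against 65.2, 91.7 and 70.0 CPM in naive replicates 1, 2 and 3 (log2 fold change -0.01, SE 0.21). Of the 10 peaks next to the window on that side, 4 were tested, and their log2 fold changes ran from -0.75 to -0.01 and did not pass the test. Of the 10 next on the high side all 10 were tested, and the log2 fold changes ran from 0.10 to 1.69. The highest of them, from 29109472 to 29110164, was the 1 called peak on that side, with 14.0, 7.94 and 19.4 CPM in the primary tumour lines, against 8.58, 2.94 and 2.99 CPM in the naive libraries, so that its groups overlapped. In the window the 9 tested peaks ran from 1.36 to 5.0. They include the peak that chose the locus and peaks that could pass the count filter through their primary tumour signal, so their median is not compared with that of other peaks. Over all 20 peaks without the filter the median was 1.65. On the rest of chromosome 19, 94 tested peaks were called higher, a share of 7.99%.

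**Figure D3:**
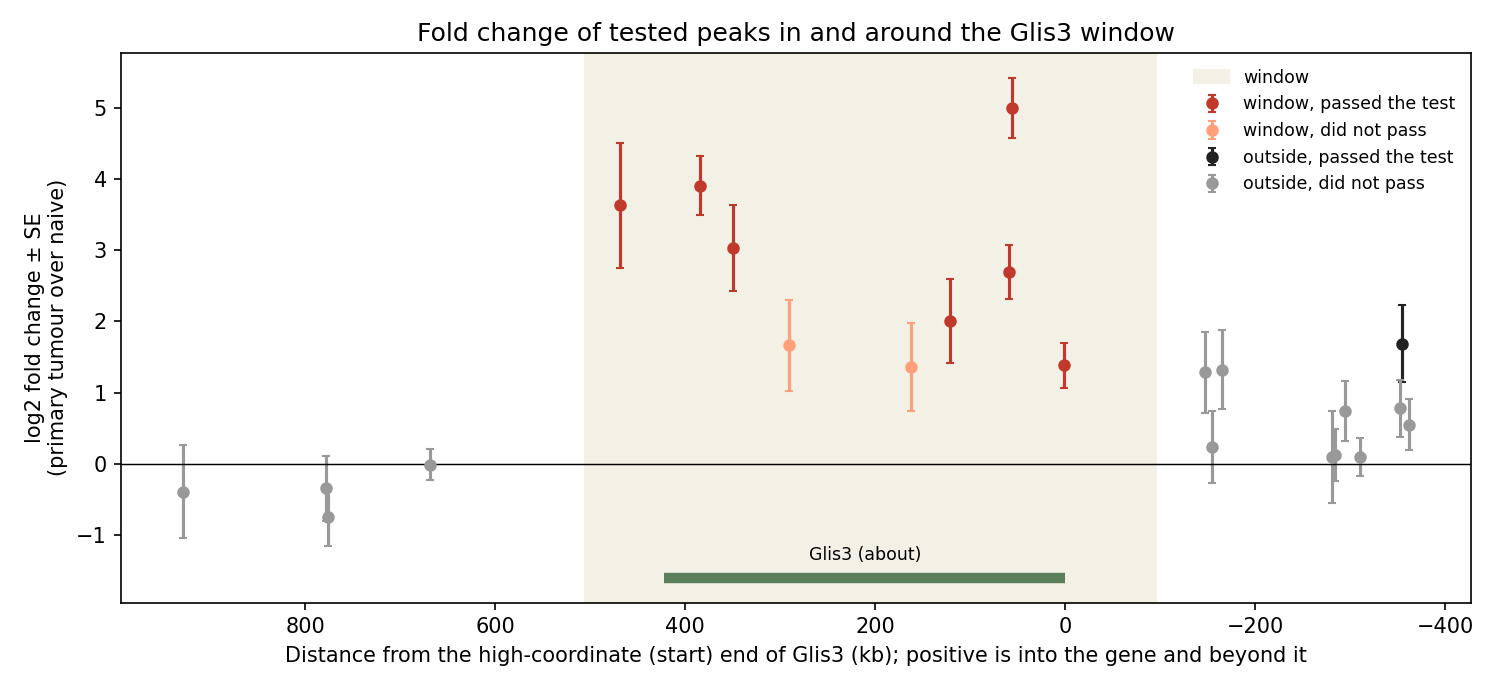
Log2 fold change of primary tumour lines over naive organoids with its SE (vertical) for the 9 tested peaks of the window and for those tested among the 10 next peaks on each side, by distance from the start end of Glis3 in kb (horizontal, with the start end to the right). The 9 peaks in the window lie between 1.36 and 5.0, and the peaks outside between -0.75 and 1.69. Those in the window include the peak that chose the locus and peaks that could pass the count filter through their primary tumour signal. The ranges are therefore a description only.

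The order of the primary tumour lines differed between peaks of the locus. Replicate 1 was the highest of the 3 lines in 11 of the 20 peaks, replicate 2 in 7 and replicate 3 in 2. These counts include untested peaks with few reads, such as that starting at 28251384 with 6, 1 and 1 reads. The order at such peaks can be counting error, and the same shares over all peaks of the series were not analysed here. Among the 7 called peaks replicate 1 was the highest in 2, those starting at 28286230 and 28405306, where it had 3.98 and 2.41 times the mean of the other lines. At the peak at 28698280 it had 0.744 times that mean, and at the start end 0.854 times. For the 4 peaks below the gene together, the lines had 42.8, 12.2 and 14.2 CPM, against 12.9, 4.78 and 2.14 CPM in naive replicates 1, 2 and 3, so that the groups overlapped there. For the 16 peaks inside the gene the lines had 272, 296 and 201 CPM, against 59.2, 29.4 and 63.2 CPM in the naive libraries, and the groups did not overlap. That sum includes the peak that chose the locus, and the sum without it is not given here. The peaks below the gene had far less signal, so the sums are not compared. On chromosome 19, primary tumour replicate 1 had a median log2 ratio to the naive mean of 0.23 over 1177 tested peaks outside the window. This median was 0.03 in both other lines and 0.00 to 0.03 in the naive libraries. The medians of other chromosomes are not given here, so whether the ratio is particular to chromosome 19 is not shown. The part of this chromosome 19 ratio in the values of replicate 1 was not tested. With each library offset by the median of its chromosome, 7 peaks of the window were called higher. The difference in summed signal was then 214 CPM, against 222 CPM without that offset, which reached only the 9 tested peaks. Both values rest on all 3 lines and do not measure replicate 1 alone. With 1 library per line the lines cannot be tested against each other.

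**Figure D4:**
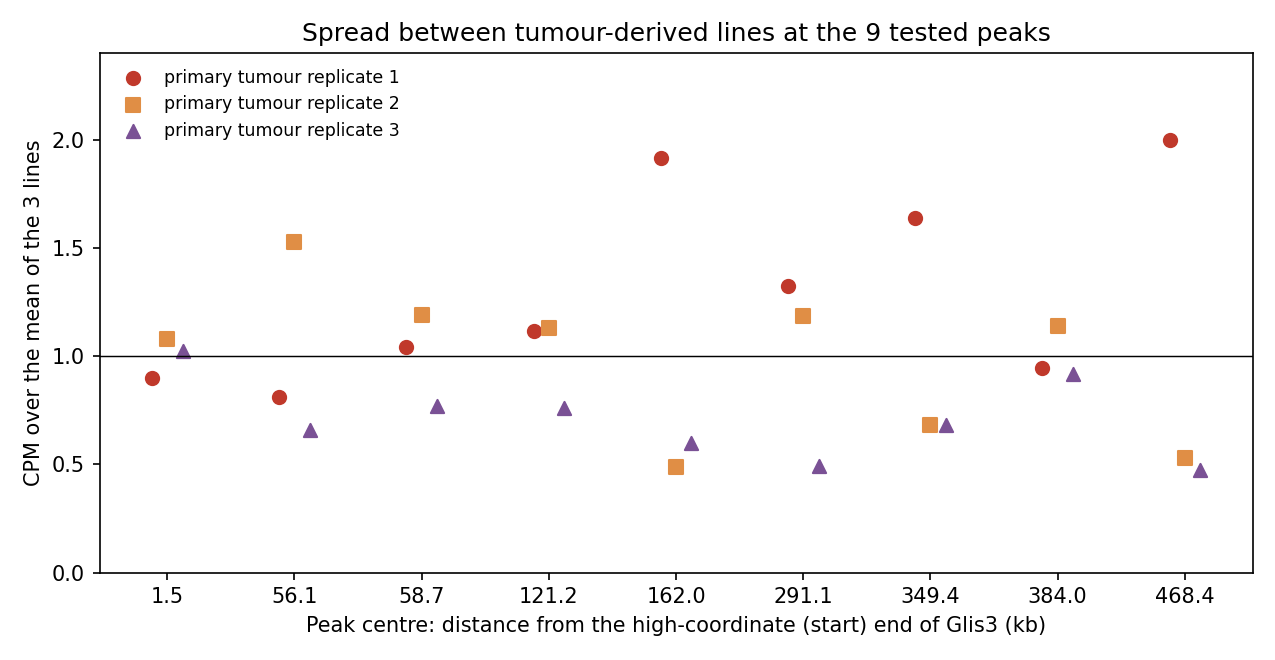
CPM of each primary tumour line relative to the mean of the 3 lines (vertical, no unit) at the 9 tested peaks, by distance of the peak centre from the start end of Glis3 in kb (horizontal). Replicate 1 lies highest at 162.0, 291.1, 349.4 and 468.4 kb, and replicate 2 at the other 5 peaks.

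Elsewhere in the genome, the peaks whose log2(CPM + 1) over the 6 libraries was most like that of the peak at 28698280 lay on 5 other chromosomes. Pearson's r was between 0.997 and 0.998 for the 5 closest of 36170 tested peaks outside the window, and it was above 0.95 for 785 of them, 2.17%. The points share their libraries and the contrast of the groups, so r is a description over 6 libraries and has no p. The closest was on chromosome 4 from 134096589 to 134097162, with 15.4, 19.6 and 15.7 CPM in replicates 1, 2 and 3 of the primary tumour lines, against 6.86, 6.61 and 7.69 CPM in naive replicates 1, 2 and 3. Replicate 2 was the highest line there, over a smaller range, while replicates 1 and 3 were close to each other. The peak was picked for its likeness over these same libraries, so this order largely follows from the choice. Of the 5, the peak on chromosome 10 from 44607027 to 44607725 had the log2 fold change nearest to that of the peak at 28698280 (4.12 against 5.0). It had 23.7, 43.4 and 18.5 CPM in the primary tumour lines, against 1.72, 1.47 and 1.71 CPM in the naive libraries. The second closest lay on chromosome 15 from 64308619 to 64309246. Chromosomes 6 (from 108659205 to 108660280) and 12 (from 4082355 to 4083207) held the others. With a pseudocount of 5 CPM, 4 of the 5 were again among the closest 5, and that on chromosome 6 was not.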

How the data were processed

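Chromatin accessibility was measured by ATAC-seq on 50000 cells per library, with paired reads of 75 bases. The authors deposited raw read counts per peak in 1 table, for a peak set shared by all libraries per its row names. The build was mm9 and the tools were bedtools, MACS2, Bowtie, SAMtools and Picard, per the submitters' processing notes. Whether duplicates were removed or reads shifted for Tn5 is not given in the sources used. Duplicates left in would inflate counts. Whether peak starts count from 0 or 1 is likewise not given.

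Groups and replicates came from the sample titles. The whole table was fitted with edgeR 4.0.16 (limma 3.58.1, R 4.3.3; filterByExpr, TMM, robust quasi-likelihood F test, group as sole term, Benjamini-Hochberg over all tested peaks, calls at adjusted p under 0.05), after the script was tested on simulated data. Log2 fold changes are primary tumour over naive, and SE came from the fold change and F. CPM are relative to TMM-scaled totals of tested peaks. The alternatives were other scalings, filters, DESeq2 1.42.0, a replicate block, each library left out, and a chromosome offset. TMM factors from autosomes other than chromosome 19 were added after seeing the data. Every peak of the window is accounted for. Values per library are given for the peak that chose the locus, called peaks and those at the window's edges, and after seeing their values for some others. The locus, rules and lists were chosen with earlier results of these data known. The gene lists and peak motifs planned for a mm9 annotation or genome were not analysed here. Promoter sequence and gene names are from RefSeq.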

Additional observations from a re-analysis of the deposited data

How the results depend on the processing

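The number of peaks of the Glis3 window called higher in primary tumour than in naive organoids was 7. It lay between 6 and 8 with DESeq2 size factors, total-count scaling, abundance-trended offsets, the DESeq2 Wald test, no filter, the chromosome offset and TMM factors without chromosomes 19, X and Y. Over the whole series these fits called between 2781 of 38015 peaks (DESeq2 Wald test) and 3029 of 43020 peaks (no filter) higher. The number in the window was 4 when peaks needed 20 counts or more in 3 or more libraries, where 4 of the peaks were tested. In that fit 2743 of all 28957 tested peaks were called higher. With 1 library left out the number in the window lay between 4 and 9, and it was lowest without naive replicate 2. Calls over the whole series were also fewer without that library, with 1366 of 38040 tested peaks higher, against 2893 of 36179 with all libraries. The cause was not tested. No peak of the window was called lower by edgeR or DESeq2 in any of these fits, which called between 849 and 2407 peaks of the series lower. The replicate block gave 6 higher peaks in the window, where 1972 of all 36179 tested peaks were called higher. Deviations of same-numbered libraries had correlations between -0.24 and 0.00, so the numbers were not taken to pair the libraries. The difference in summed signal was 222 CPM, and between 205 and 252 CPM with 1 library left out. Under the other scalings it was between 214 and 227 CPM, where the abundance-trended and chromosome offsets reached only the tested peaks. Without the peak that chose the locus, which was also the peak of highest mean, it was 164 CPM. No fold change of a tested peak changed sign in any fit. At weak peaks 1 read in naive replicate 1 was worth 0.858 CPM, which limits what a naive value near 0 can show.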
